A study of Mus musculus with 2 samples.

Results

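REV-ERBα peaks standing alone on mouse autosomes were taken from a ChIP-seq peak list of Th17 cells. A peak was called isolated when the midpoint of the nearest other peak on its chromosome lay more than 300 kb away. This held for 371 of 8772 autosomal peaks, or 4.23% (exact Clopper-Pearson 95% interval 3.82 to 4.67), out of 8884 peaks on all chromosomes. The other 8401 autosomal peaks serve as the reference. The ChIP sample and its control, input DNA without antibody enrichment, both came from wild-type Th17 cells grown in primary culture, and there was 1 sample of each. The ChIP library held 6390234 tags (aligned reads), and with no replicate the intervals below reflect counting error alone, taking each peak as independent of the rest. The isolated peaks were chosen by the measured positions of the calls. Their tags, scores and input come from the same calls and libraries, so these values are given as a description without a test.

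REV-ERBα, the product of Nr1d1, is a nuclear receptor without an activation helix. It binds single AGGTCA half-sites that follow an AT-rich stretch, the same elements that ROR receptors use, and recruits the NCoR corepressor with the histone deacetylase HDAC3. In Th17 cells the receptor of the ROR family is RORγt, which is needed for the Il17a programme, so both receptors can meet at the same elements. The deposited positions are in build mm9, for which no sequence or gene annotation was used here. Peaks are therefore named by position, motifs were not searched, and no gene is assigned to a peak.

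Isolated peaks were low peaks with little input under them. They held a median of 13 ChIP tags against 15 in the other autosomal peaks, and 44.2% of them had a score within 1 of the calling threshold, against 24.9% of the others. Their enrichment over input was not lower: 71.2% were at least 8-fold over input, against 61.0% of the others. Enrichment over the surrounding DNA was higher, with a median of 10.1-fold against 7.71-fold. Listed neighbours can lie in the surrounding region of the other peaks, whereas isolation keeps them out. Their part in this gap was not tested. In the other peaks without a neighbour inside 10 kb the median was 8.40-fold. The isolated peaks were thus lower than the others in height but not in either enrichment.

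The isolated peaks ranged from 8 to 10556 ChIP tags, and the middle 50% of them from 11 to 16. The strongest is a region apart that is described below. The next highest had 43 tags, while 66 of the other autosomal peaks had more than that. In the authors' scaling to 10000000 tags the median was 20.3 in isolated and 23.5 in other peaks. At most 12 tags were found in 179 isolated peaks (48.2%, interval 43.1 to 53.5), compared with 29.4% of the others and 30.2% of all autosomal peaks. The lowest counts listed, 7 or 8 tags, belonged to 7 isolated peaks (1.89%, interval 0.762 to 3.85) and 0.536% of the others; the caller applied its threshold of 9 to the score, and all 7 had a score of at least 9. At least 20 tags were found in 53 (14.3%, interval 10.9 to 18.3), compared with 27.2% of the others and 26.6% of all. The distributions overlapped over nearly their whole range, and the shift was a matter of shares. The median was lower among isolated peaks on 18 of 19 autosomes and equal on chromosome 7, where both groups had a median of 15.

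**Figure D1:**
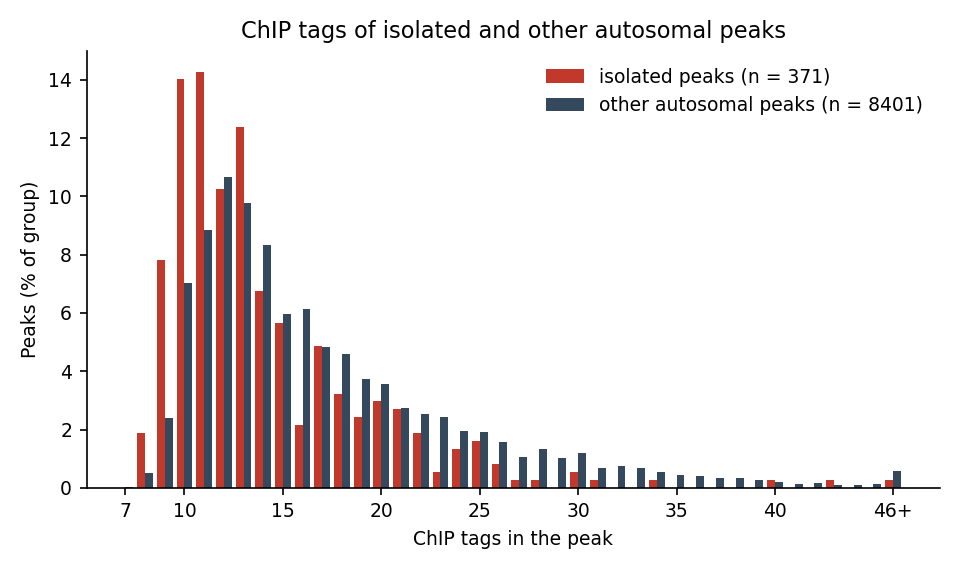
Share of peaks (y axis, % of each group) at each number of ChIP tags (x axis, 46 and above pooled) for the 371 isolated and the 8401 other autosomal peaks. Isolated peaks crowd at 8 to 13 tags and are under-represented from 20 tags upwards.

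The score is the caller's own measure of peak height. It is not a plain count of the listed tags, since it exceeded them in 31 isolated peaks (8.36%) and 496 of the others (5.90%). Its median was 11 in isolated and 13 in other peaks, and the caller's own threshold was 9. A score of 9 or 10 was listed for 164 isolated peaks (44.2%, interval 39.1 to 49.4), 24.9% of the others and 25.7% of all autosomal peaks. Exactly 9 was listed for 100 (26.95%, interval 22.5 to 31.8), compared with 12.97% of the others. At equal tag counts the difference almost vanished: the other peaks, weighted to the tag counts of the isolated ones, had 41.8% at a score of 9 or 10, against 44.3% for the 370 isolated peaks that could be matched. The low scores thus went with the low tag counts. Score and tag count come from the same ChIP tags, so little difference could remain at equal counts. Clonality, the listed ratio that rises when tags pile up on few positions, was alike, with a median of 0.98 in both groups. A ratio of at least 1.2 was listed for 6.47% of isolated and 5.21% of other peaks.

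A false discovery rate of 0.001 over the 14274 putative peaks corresponds to 14.3 calls under the caller's model of evenly spread tags, before the filters on input and on the local region. The model's even spread gives 0.831 tags per peak width. The local background implied at the isolated peaks was above that in 314 of 371 (84.6%, interval 80.6 to 88.2), and in 98.0% of the other peaks.

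Input was low under isolated peaks. The median was 0.9 scaled tags, which is 1 input tag, against 1.9 scaled tags, or 2 input tags, in the others. No input tag was counted in 90 isolated peaks (24.3%, interval 19.98 to 28.95), 16.3% of the others and 16.7% of all autosomal peaks. The gap was smaller at equal tag counts. The other peaks, weighted to the tag counts of the isolated ones, had 20.4% without an input tag, against 24.3% for the 370 matched isolated peaks. The interval of the isolated peaks includes 20.4%, so this share does not settle whether the groups differ at equal tags. At least 3 input tags were found in 12.1% of isolated peaks (interval 8.99 to 15.9), compared with 27.5% of the others. Leaving out the strongest region, the 370 isolated peaks held 5201 ChIP and 475 input tags together, a pooled enrichment of 11.6-fold (interval 10.5 to 12.8) once input is scaled to ChIP depth. The other peaks gave 9.95-fold (9.78 to 10.1).

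A peak with few ChIP tags passes the authors' 4-fold filter only where input is low, so the groups were also compared at equal tag counts. The isolated peaks had 1.28 input tags each, and the others, weighted to the same tag counts, 1.52. The ratio was 0.843 (interval 0.769 to 0.922). In the class of 15 to 17 ChIP tags, isolated peaks had 1.30 input tags per peak (interval 0.993 to 1.67) and others 1.83. At 22 to 30 tags the values were 1.59 (interval 1.15 to 2.15) and 2.53. In the other 5 classes the intervals of isolated peaks included the values of the others. With the list restricted to peaks at least 8-fold over input, and isolation taken anew, the ratio was 0.955 (interval 0.867 to 1.05). That restriction caps the input of both groups at a given tag count, so it limits how far the ratio can lie from 1. Copy number, mappability and base composition of these regions were not measured, and their part in the low input was not tested.

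**Figure D2:**
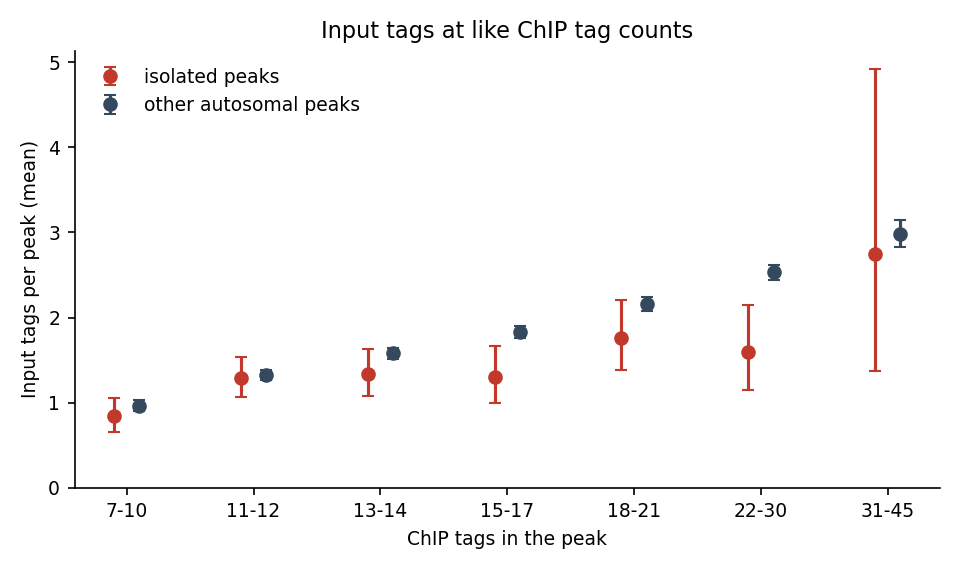
Mean number of input tags per peak (y axis) in classes of ChIP tags (x axis) for isolated and other autosomal peaks, with exact Poisson 95% intervals. Isolated peaks lie below the others in all 7 classes, and their intervals exclude the others' means at 15 to 17 and at 22 to 30 tags only.

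Isolated peaks were set against the authors' filter on input in 3 ways. Under 5-fold enrichment was listed for 23 of them (6.20%, interval 3.97 to 9.16), compared with 9.94% of the others. At the lowest tag counts, which are more frequent among isolated peaks, the filters themselves leave little room below 5-fold. This difference is therefore partly set by tag counts, and it was not compared at equal tags. In 57 isolated peaks (15.4%, interval 11.8 to 19.4) the input held as many tags as the 4-fold filter allows at that tag count, and in 17.1% of the others. The authors' Poisson p over input was above 1e-05 in 6.20% of isolated and 4.71% of other peaks, and the interval for the isolated peaks, 3.97 to 9.16, includes the second value. For the last 2 of these measures the intervals of isolated peaks included the shares of the others. Both also depend on tag counts and were not compared at equal tags, so they do not settle whether the groups differ. At least 8-fold over input were 264 isolated peaks (71.2%, interval 66.3 to 75.7), compared with 61.4% of all autosomal peaks. Higher folds are mostly those of peaks without an input tag, where the fold is the tag count over the lowest listed input. Such peaks made up 90 of the 120 isolated peaks at least 16-fold over input, and 16 of the 17 at least 32-fold. At least 16-fold were 32.3% of isolated peaks (interval 27.6 to 37.4) and 27.9% of the others. At least 32-fold were 4.58% (interval 2.69 to 7.24) and 6.14%, the opposite order. Both intervals include the others' shares, and these folds are mostly not measured ratios. The 90 isolated peaks without an input tag are among the 264 at least 8-fold over input.

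Local enrichment sets a peak against the 10000 bp around it. At least 8-fold local enrichment was listed for 264 isolated peaks (71.2%, interval 66.3 to 75.7), 46.3% of the others and 47.3% of all autosomal peaks. Under 5-fold were 8 isolated peaks (2.16%) and 10.9% of the others. Listed peaks nearby enter each other's local region, so a second reference was taken from the 5439 other peaks whose nearest neighbour lay over 10 kb away. Of these, 54.9% were at least 8-fold over the local region. The local background, obtained as tags over local fold, had a median of 1.36 ChIP tags per peak width in isolated peaks (interval 1.29 to 1.39), 1.74 in this second reference and 1.96 in all other peaks. At equal tag counts the mean background of isolated peaks was 0.736 of that in all other peaks and 0.809 of that in peaks without a neighbour inside 10 kb.

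These differences did not begin at 300 kb. The share of scores of 9 or 10 was 16.1% for peaks with a neighbour within 3 kb. It was 19.7% at 3 to 10 kb, 25.3% at 10 to 30 kb, 28.5% at 30 to 100 kb and 35.2% at 100 to 300 kb. Among isolated peaks it was 42.0% at 300 to 500 kb (181 peaks), 48.6% at 500 to 1000 kb (105 peaks) and 43.5% beyond 1000 kb (85 peaks), and the intervals of these last 3 classes overlap. The median number of tags went from 17 within 3 kb to 13 at 100 to 300 kb and stayed at 13 in each isolated class. The median local background fell from 2.78 tags per peak width within 3 kb to 1.52 at 100 to 300 kb, and was 1.36, 1.23 and 1.36 in the isolated classes. Enrichment over input behaved otherwise. The share of peaks at least 8-fold over input lay between 60.5% and 61.6% in the 5 classes up to 300 kb. It was 68.0% (interval 60.6 to 74.7), 78.1% (69.0 to 85.6) and 69.4% (58.5 to 78.95) in the isolated classes. Input at equal tag counts, relative to all autosomal peaks, was 0.964 (interval 0.917 to 1.01) at 100 to 300 kb and 0.907 (0.797 to 1.03), 0.729 (0.602 to 0.875) and 0.869 (0.715 to 1.05) in the isolated classes. Only the middle isolated class was clear of 1.

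**Figure D3:**
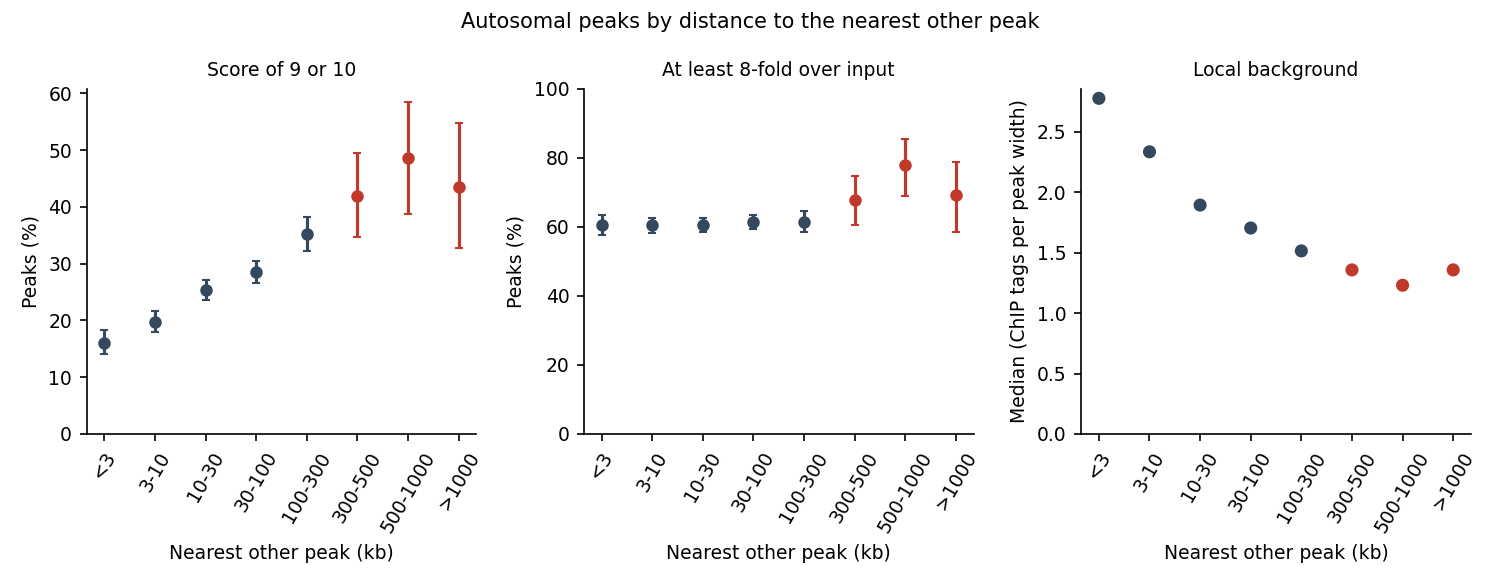
Autosomal peaks in 8 classes of distance to the nearest other peak (x axes, kb; the 3 isolated classes in red). The panels show the share with a score of 9 or 10, the share at least 8-fold over input (both in %, exact 95% intervals) and the median local background (ChIP tags per peak width). Low scores become more frequent and the background falls with distance up to 1000 kb, with no further step in the same direction beyond it, while the share at least 8-fold over input is level up to 300 kb.

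At the boundary, the 3 peaks just inside held no more tags than any of the 3 just outside. The peaks just inside it lay on chromosome 17 at 34740429 to 34740735 (9 tags, 300853 bp from the nearest peak), chromosome 1 at 181916342 to 181916648 (10 tags) and chromosome 11 at 59422844 to 59423150 (11 tags). Just outside were the peaks on chromosome 3 at 102523670 to 102523976 (11 tags, 299947 bp), chromosome 6 at 113028345 to 113028651 (22 tags) and chromosome 13 at 21509523 to 21509829 (23 tags).

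Most isolated peaks had few listed peaks within 1 Mb. The median number of other peaks within 1 Mb on either side was 3, compared with 15 for the other autosomal peaks. The definition keeps the inner 300 kb on each side empty, so this contrast is partly built in. No other peak lay within 1 Mb for 85 isolated peaks, the same peaks as those beyond 1000 kb above. The highest number around an isolated peak was 26. In 175 of 371 the next peak in order on 1 side or the other was itself isolated. The matching share of the other peaks was not computed. The longest unbroken run was 8 isolated peaks on chromosome 5, from 37458411 to 53299783, a stretch of 15.8 Mb in which they held 9 to 23 tags each. The first peak of a chromosome was isolated in 8 cases and the last in 6, where only 1 side could be measured.

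The 5 peaks farthest from any other were low. The isolated peaks beyond 1000 kb as a whole had a median of 13 tags, as in the nearer isolated classes. The peak on chromosome 14 at 87885875 to 87886181 had 7.96 Mb to its left and 12.4 Mb to its right without a peak. It held 13 tags (Poisson interval 6.92 to 22.2) with a score of 10 and no input tag. The first listed peak of chromosome 6, at 8435440 to 8435746, was 7.16 Mb from the next and held 11 tags, also with no input tag. The peaks on chromosome 8 at 55535200 to 55535506 and chromosome 12 at 66295121 to 66295427 were 4.37 and 3.97 Mb from their nearest neighbours. They held 13 and 12 tags, each over 3 input tags, and their folds over input of 4.58 and 4.23 were near the filter of 4. The last listed peak of chromosome 17, at 95149292 to 95149598, was 3.95 Mb from its neighbour and held 11 tags with a score of 9. All 5 had tag counts at or below the median of isolated peaks, and their counting intervals overlap.

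The strongest isolated peaks differed in kind. The region on chromosome 2 at 98506881 to 98507187 held 10556 tags but also 2064.5 scaled input tags, so that its fold over input was 5.11, and its nearest neighbour was 3.01 Mb away. It held more tags than the other 370 isolated peaks together, which had 5201. It is left out of every mean and pooled value above. The second was the first listed peak of chromosome 9, at 3015359 to 3015665, with 43 tags (interval 31.1 to 57.9) over 1 input tag. Its local enrichment was only 5.43-fold, with a surrounding background of 7.92 tags per peak width, the highest among the isolated peaks apart from the chromosome 2 region and far above their median of 1.36.

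The remaining peaks among the top 10 had 26 to 40 tags and stood clear of their surroundings, at 10.3-fold to 28.5-fold over the local region. The peak at 113379962 to 113380268 of chromosome 7 had 40 tags and 14.2-fold local enrichment, over 5 input tags, the most in an isolated peak after the chromosome 2 region. Another peak of chromosome 2, at 132514301 to 132514607, held 34 tags over 3 input tags, an enrichment of 11.99-fold. A peak of 31 tags on chromosome 4, at 109398976 to 109399282, exceeded its local region by 19.6-fold. Peaks of 30 tags lay on chromosome 10 at 85474598 to 85474904 and on chromosome 14 at 74302147 to 74302453, the latter 22.6-fold over its local region. The others were on chromosome 9 at 89769315 to 89769621 (28 tags over 4 input tags), chromosome 15 at 35654337 to 35654643 (27 tags) and chromosome 11 at 59039842 to 59040148 (26 tags). The tag intervals of these 8 peaks overlap, and do not settle their rank.

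The highest fold over input among isolated peaks, 57.1, was that of the chromosome 15 peak, which had 27 tags and no input tag. It was also 28.5-fold over its local region. Peaks without an input tag also lay on chromosome 3 at 130412392 to 130412698 (25 tags), chromosome 8 at 32260307 to 32260613 (22 tags) and chromosome 9 at 55602450 to 55602756 (21 tags). Folds of such peaks are set by the lowest input value the caller lists, 0.5 scaled tags, and are not measured ratios. The lowest fold, 4.23, was shared by 10 isolated peaks of 12 tags over 3 input tags. The 5 first in genome order were on chromosome 2 at 116798022 and 136717400, chromosome 3 at 68413086 and chromosome 5 at 53299477 and 112704071. Of these, the last was also only 4.47-fold over its local region, and the peak at 68413086 was 11.9-fold.

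Combining the measures, 40 of the 53 isolated peaks with at least 20 tags were at least 8-fold both over input and over the local region. The same share was not computed for the other peaks of at least 20 tags, so this number is not a comparison. Of the 164 with a score of 9 or 10, 74 (45.1%) were at least 8-fold in both comparisons, against 19.6% of the 2089 other peaks with such scores and 23.5% of the 1547 such peaks without a neighbour inside 10 kb. Isolation itself keeps listed neighbours out of the local region. Only 6 of the 164 were under 5-fold over input. The authors' filters on input leave little room below 5-fold at low tag counts, so this number says little about these peaks. The highest clonality ratio among isolated peaks, 1.73, belonged to a peak on chromosome 1 at 34490059 to 34490365, chosen after its values were seen. Its 20 tags gave a score of only 10. The ratio did not mark the chromosome 2 region, which had 34.5 tags per bp, a score of 372 and a ratio of 0.85. No second ChIP sample was available to show whether the low isolated peaks recur, and whether they are bound sites or background calls was not tested.

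Isolated peaks occurred on every autosome, from 10 on chromosomes 17 and 19 to 31 on chromosome 1. As a share of a chromosome's peaks they were most frequent on chromosome 14, at 7.79% (24 of 308, interval 5.06 to 11.4), followed by chromosome 13 at 5.63% and chromosome 18 at 5.60%. They were least frequent on chromosome 11, at 2.58% (18 of 697, interval 1.54 to 4.05), chromosome 17 at 2.72% and chromosome 15 at 2.80%. The intervals of chromosomes 14 and 11 do not overlap, whereas those of most neighbours in this order do. The share was lower where peaks were denser, with a Pearson's r of -0.68 and a Spearman's rho of -0.66 over 19 autosomes. Both measures contain the number of peaks on the chromosome, so a negative relation is partly built in. Counted per Mb between the first and last peak, isolated peaks averaged 0.156 ± 0.0316 (SD, 19 autosomes), with r of -0.11 and rho of -0.06 against peak density. Chromosome 11 had 5.87 peaks per Mb and chromosome 14 2.69, but they had 0.152 and 0.209 isolated peaks per Mb, with overlapping intervals of 0.0899 to 0.240 and 0.134 to 0.312.

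**Figure D4:**
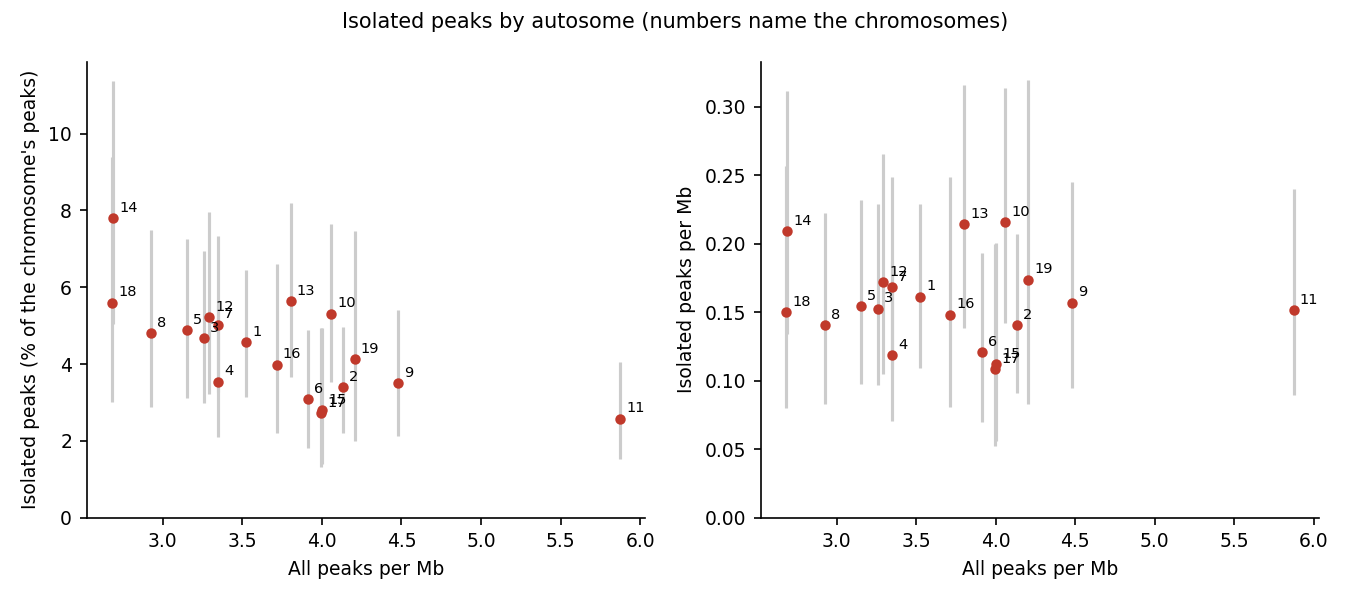
Isolated peaks on the 19 autosomes against all peaks per Mb (x axes), as a percentage of the chromosome's peaks (left) and per Mb (right), with exact 95% intervals in grey. Chromosome 14 is highest and chromosome 11 lowest by percentage, while the numbers per Mb show no trend with peak density.

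On the X chromosome, which the definition leaves out, the same distance would set apart 16 of 112 peaks (14.3%, interval 8.39 to 22.2). A score of 9 or 10 was listed for 12 of these 16 (75%, interval 47.6 to 92.7) and for 54 of all 112 X peaks (48.2%). The interval of the 16 includes the share of all X peaks.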

How the data were processed

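The authors' peak list of 1 ChIP sample was used. Per the file headers, the authors called peaks with HOMER findPeaks against input, with 306 bp peaks, a threshold of 9 tags that the listed scores meet, and filters of 4-fold and p 1e-04 (Poisson), applied to input and to the local 10000 bp alike. The submitters' processing notes also name CASAVA 1.8.2, Bowtie and build mm9, without their roles. Total tags are deposited raw counts. Normalized tags and input tags are deposited as signal, scaled by the authors to 10000000 tags and to ChIP depth. Folds are deposited linear ratios, p-values are as the authors deposited them, and the score is the deposited peak height.

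Input in whole tags was recovered as tags over fold, 1 input tag being 0.945 scaled tags. This gave whole numbers within a relative 0.02 for all 7392 peaks not at the lowest value, and the rest were read as no input tag. Comparisons at equal tags weighted the other peaks to the isolated peaks' counts, singly up to 25 tags, then up to 30, 45 and 70. Shares carry Clopper-Pearson and counts Poisson 95% intervals, and medians order-statistic intervals. Python 3.11.15, numpy 2.4.6, pandas 2.3.3, scipy 1.17.1 and matplotlib 3.10.9 were used. The distance rule, the recovery of input tags and the input ratio at equal tags were tested on simulated data. Those data carried no filter on input, and the comparisons of score and local background were not tested on them.

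Named peaks are the 10 with most tags, the 5 farthest from others, the 5 highest and 5 lowest in fold, the 3 with most input and the 3 on each side of the threshold. The definition, groups and measures were chosen with earlier results of these data known. Equal-tag comparisons were added after seeing the data.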

Additional observations from a re-analysis of the deposited data

How the results depend on the processing

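The isolated share of 4.23% was 7.22% with a distance of 200 kb and 2.17% with 500 kb. Isolation was recomputed in shorter lists, where fewer peaks lie farther apart by construction. It was 9.25% when 8-fold over input was required and 9.13% when the median score was. In the 8-fold list, at least 20 tags were found in 20.3% of isolated and 31.9% of other peaks. No input tag was counted in 33.3% and 26.5%, and 100% were 8-fold by construction. Input at equal tags was then 0.955 of that in the others (interval 0.867 to 1.05), a comparison in which the 8-fold requirement caps the input of both groups, and local background 0.776. In the median-score list the share of at least 20 tags was 39.7% in isolated and 50.8% in other peaks, and of no input tag 18.5% and 11.1%. At least 8-fold over input were 68.0% of isolated peaks in that list (interval 63.3 to 72.4) and 63.7% of the others. That interval includes the others' share. A score of 9 or 10 was removed by construction (0%), and at most 12 tags were left in 0.935% of isolated and 1.62% of other peaks, the opposite order to the full list. Local background at equal tags was 0.809 of that in peaks without a neighbour inside 10 kb. The other alternatives (chromosome ends or the strongest region left out, the X added, each autosome left out in turn) left these values within their 95% intervals and on the same side of the other peaks. No paired analysis was possible because there was 1 ChIP sample, and leaving out a replicate was not possible either. With a score threshold of 9 at this depth, a stretch without listed peaks may still hold weaker sites, so isolation is a property of the list.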
